A study of Rattus norvegicus with 60 samples.

Results

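In the bisulfite libraries of rat dorsal root ganglion, 2519 genomic regions were listed. Of these, 670 held under 0.05 CpG dinucleotides per base and had a mean methylation level under 0.5 in controls. They are called CpG-sparse by this cut within the list, not by comparison with the genome. They were chosen by 3 criteria. The highest number of CpGs listed for the region in any library, divided by its length, was under 0.05 per base. At least 5 control libraries had a value, and the mean over those controls was under 0.5. Dorsal root ganglia came from SD rats, either untreated (control, 10 libraries) or given complete Freund's adjuvant (CFA, 10 libraries), an emulsion with killed mycobacteria that keeps the injected tissue inflamed. The dose was 0.1 mL under the skin of 1 foot, and all animals shared the same housing. The sources used here give no sex, age, side of the ganglia or time after injection, and do not say whether ganglia were pooled. The bisulfite data hold no gene expression, so the tissue label was not checked against marker genes. The series title points to AP-1, a transcription factor complex, in inflammatory hyperalgesia.

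In mammalian DNA the cytosine of a CpG can carry a methyl group, which is copied to the new strand when the cell divides. CpG-poor DNA is mostly highly methylated, whereas CpG islands at gene starts are mostly unmethylated. CpG-poor stretches with low to intermediate methylation are known, in mouse cells, to lie often at distal regulatory elements where transcription factors bind. No genome or annotation of the build rn4 was used. Whether the regions described here are CpG-poor beside the genome, or lie at such elements, was therefore not analysed. A dorsal root ganglion holds the cell bodies of sensory neurons together with satellite glia, Schwann cells, vessel cells and macrophages. A level between 0 and 1 in such a tissue can come from a mixture of cells, and a shift in the cells present cannot be told apart from a shift in methylation within cells.

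Each value is the authors' mean methylation level over the CpGs of a region in 1 library, from 0 to 1. The files also give the number of CpGs behind that mean but not the reads, so depth is unknown and no counting interval is given. The names of the deposited files describe the regions as differentially methylated, and the sources used here do not give how they were called. The list therefore comes selected, and the rule used the control mean, which is part of every difference between CFA and control. For that reason the differences are given as a description, and the only test is a limma fit over the whole list. Such a fit does not undo the selection of the list itself, so its p-values may not hold their nominal rates.

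The regions were short and held a small number of CpGs. Their median length was 357 bases (201 to 1271), and the highest number of CpGs in a library had a median of 11 (9 to 29). The median density was 0.0328 CpGs per base (0.00787 to 0.0498). Their levels in controls were mostly intermediate, so that only a small share could be called unmethylated. The control mean had a median of 0.332 and ran from 0.0134 to 0.49955. It was under 0.1 in 41 regions (6.12%), under 0.2 in 139 (20.7%) and under 0.4 in 467 (69.7%). In 215 regions every control with a value was under 0.5, and in 5 every control was under 0.1.

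The threshold on the control mean cut through a continuous range. Just inside it were chromosome 3, 148167457 to 148167983 (control mean 0.49955) and chromosome 4, 150818245 to 150818657 (0.49938). Just outside were chromosome 1, 124467080 to 124467509 (0.50179) and chromosome 3, 157738095 to 157738503 (0.50187). For density, chromosome 8, 93020877 to 93021339 (0.049784 per base) and chromosome 15, 14785939 to 14786140 (0.049751) lay just inside. On chromosome 10, 105990217 to 105990417 and on chromosome 15, 43208521 to 43208741 lay just outside, both at 0.05.

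The 10 controls and CFA 1 to 7 resembled each other in listed values, CpG numbers and values at 0 or 1. CFA 8, 9 and 10 stood apart. A value was listed for 602 to 646 of the 670 regions in controls and for 619 to 659 in CFA 1 to 7, but for 330, 339 and 296 in CFA 8, 9 and 10. The mean number of CpGs behind a value was 8.16 to 9.30 in controls, 8.75 to 10.1 in CFA 1 to 7, and 5.22, 5.56 and 5.07 in CFA 8, 9 and 10. The values of these last 3 libraries also lay more often at the ends of the scale. Of their 965 values, 29.0% were exactly 0 and 19.5% exactly 1. The same shares were 5.65% and 0.238% of 6306 control values, and 4.66% and 0.312% of 4484 values in CFA 1 to 7. Over all 2519 regions these libraries also had the fewest listed, with 1186, 1203 and 1009, beside 2175 to 2328 in controls and 2213 to 2413 in CFA 1 to 7. Differences are therefore given with and without CFA 8, 9 and 10.

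The middle of the levels hardly moved between controls and CFA 1 to 7. The median level over the regions was 0.297 to 0.331 in the 10 controls, with a median library at 0.310. It was 0.291 to 0.298 in CFA 1 to 3 and 0.324 to 0.333 in CFA 4 to 7, and 0.471, 0.443 and 0.438 in CFA 8, 9 and 10. The medians of the first 7 CFA libraries thus overlapped the range of the controls, while the last 3 lay above every control. The upper quartile of the levels was 0.435 to 0.485 in controls and 0.469 to 0.472 in CFA 1 to 3. It was 0.496 to 0.5004 in CFA 4 to 7, above every control. Over the 88 regions that CFA 8, 9 and 10 all listed, the median was 0.228 to 0.317 in controls and 0.242 to 0.297 in CFA 1 to 7. In CFA 8, 9 and 10 it was 0.356, 0.479 and 0.414 over those regions. With values from at least 5 CpGs only, CFA 8, 9 and 10 had medians of 0.518, 0.429 and 0.436, and controls had 0.2997 to 0.335. Beyond these values, the part of the CpG number in the higher levels was not tested.

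**Figure D1:**
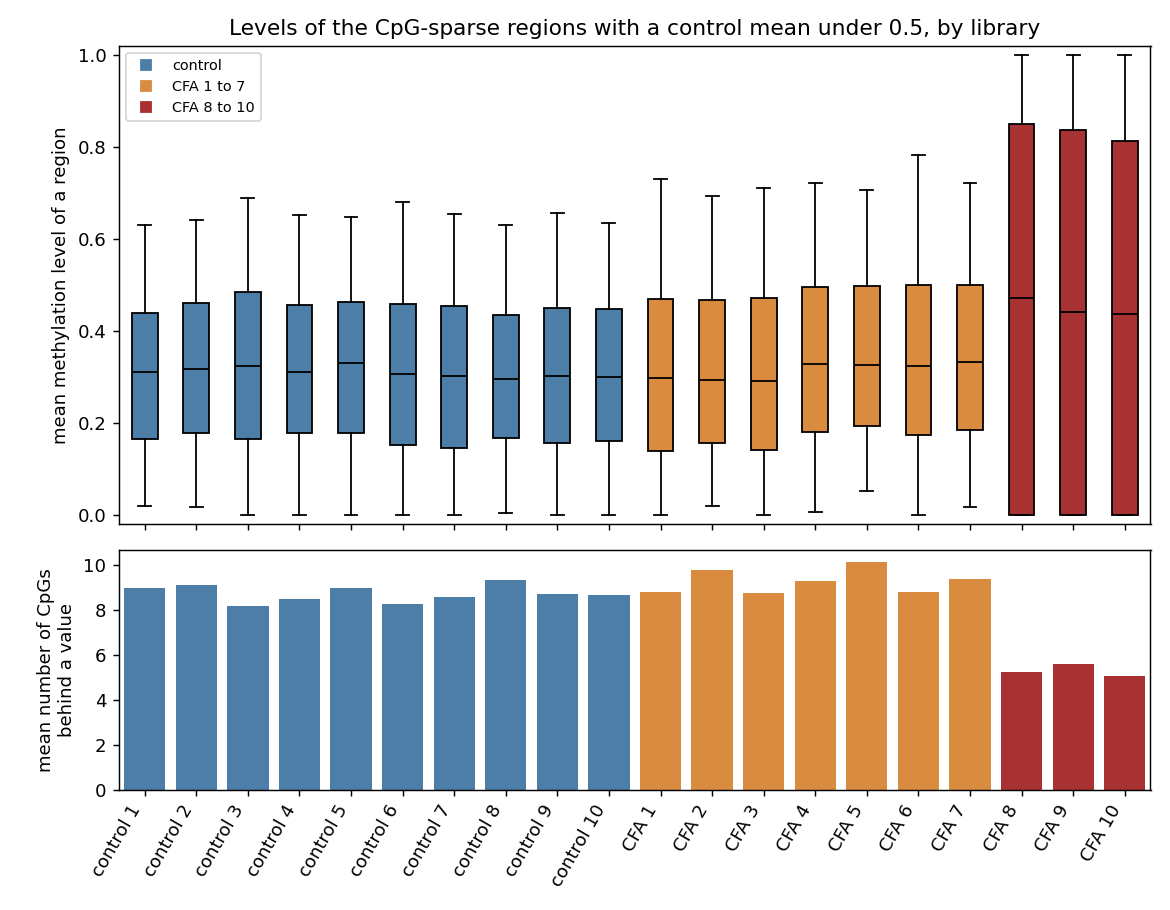
Levels of the CpG-sparse regions with a control mean under 0.5, by library. The y axis is the mean methylation level of a region (0 to 1), the line is the median, the box spans the quartiles and the whiskers leave out the extreme 5% at each end. The boxes of CFA 8, 9 and 10 start at 0 and reach above 0.8, whereas those of the other CFA libraries lie nearer to the controls. The upper edges in CFA 4 to 7 are above those of every control.

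Region by region, higher means in CFA were more frequent than lower ones. The CFA mean was above the control mean in 397 of 670 regions (59.3%) and below it in 273. The median difference, CFA minus control, was 0.0912, and single regions ranged from -0.269 to 0.383. Without CFA 8, 9 and 10, 389 regions (58.1%) were higher and 281 lower, with a median difference of 0.0527. The direction differed between the 2 ways of averaging in 16 regions. Over all 2519 listed regions, 52.9% had a higher mean in CFA and the median difference was 0.0516, or 51.9% and 0.0215 without CFA 8, 9 and 10.

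Small differences were scarce. The higher regions had a median difference of 0.145 and the lower ones a median difference of -0.123, and only 48 regions (7.16%) lay within 0.05 of 0. Over all 2519 listed regions it was 170 (6.75%), and the file names describe the whole list as differentially methylated. The scarcity may therefore come with the selection of the list, which was not tested. The differences formed 1 group above 0 and 1 below, so that the median over all regions falls between them and describes few single regions. Without CFA 8, 9 and 10 both groups moved closer to 0, to medians of 0.109 and -0.111, with 70 regions within 0.05. Differences above 0.2 were found in 85 regions, and in 41 without CFA 8, 9 and 10. Differences below -0.2 were found in 25 regions, and in 24 without those libraries. Leaving them out thus lowered the number of large positive differences and left that of large negative ones nearly the same.

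**Figure D2:**
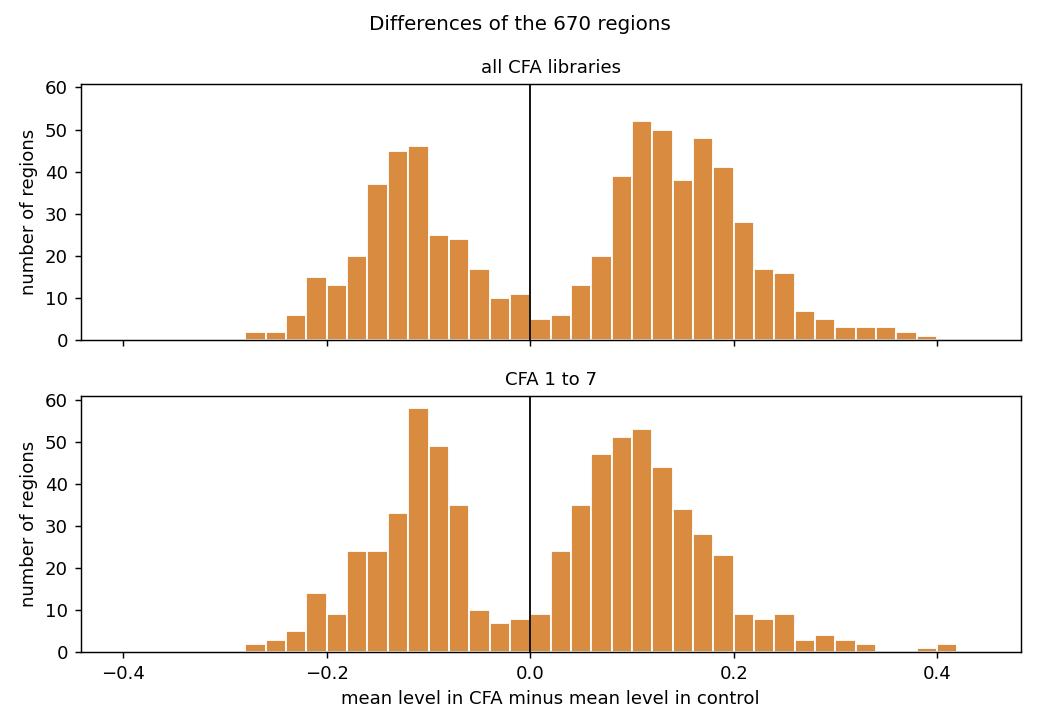
Histogram of the difference in mean methylation level, CFA minus control, over the 670 regions, with all CFA libraries and with CFA 1 to 7 only. The y axis counts regions, and both histograms have a peak on each side of 0 with few regions between them.

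Taken 1 library at a time, CFA 8, 9 and 10 lay furthest above the control means. The median over regions of a library's level minus the control mean was between -0.0262 and 0.0191 in CFA 1 to 7. It was 0.110 in CFA 8, 0.0859 in CFA 9 and 0.103 in CFA 10. In the 315 regions with a value in at least 2 of these 3 libraries, their mean exceeded that of CFA 1 to 7 in 200 and was lower in 115. The median of that difference was 0.110, with quartiles at -0.0763 and 0.299. The last 3 libraries were therefore more extreme in both directions, and more often upward.

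**Figure D3:**
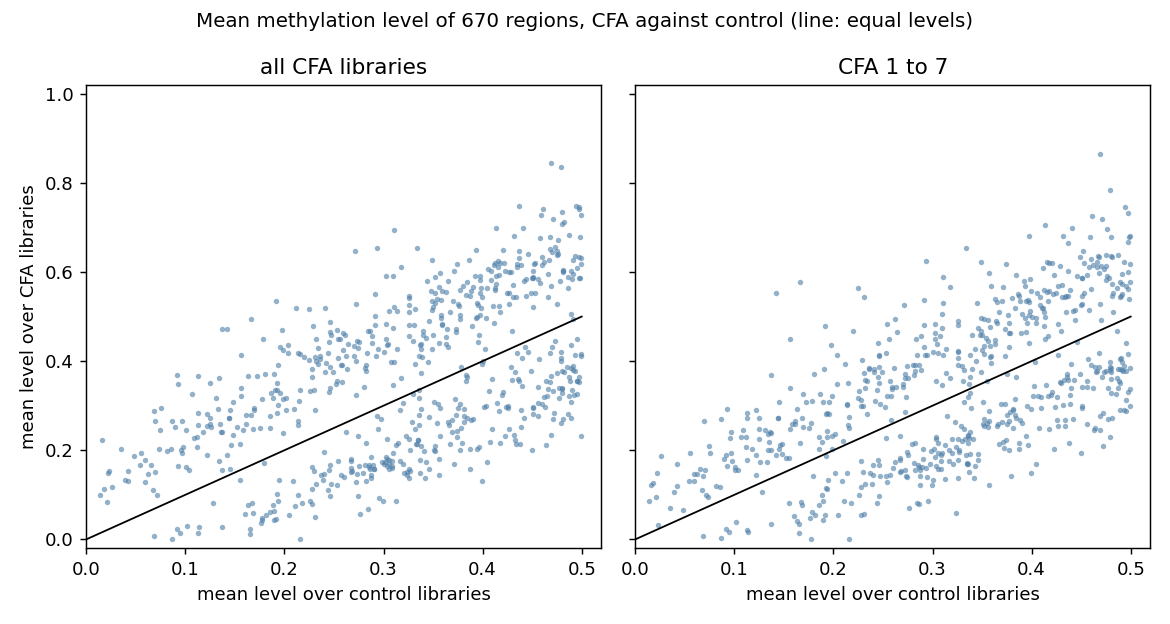
Mean level of each of the 670 regions in controls (x axis) against its mean in CFA (y axis), both from 0 to 1, with the line of equal means. With all CFA libraries and with CFA 1 to 7 only, the points form bands above and below the line, and 166 regions (136 for CFA 1 to 7) reach a CFA mean of at least 0.5.

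The lower the control level, the larger was the share of regions with a higher mean in CFA. Of the 41 regions with a control mean under 0.1, 37 were higher (90.2%), with a median difference of 0.112. From 0.1 to 0.2 it was 73 of 98 (74.5%), and from 0.2 to 0.3 it was 79 of 137 (57.7%). From 0.3 to 0.4 it was 102 of 191 (53.4%), and from 0.4 to 0.5 it was 106 of 203 (52.2%). With CFA 1 to 7 alone these shares were 90.2%, 73.5%, 56.2%, 50.8% and 52.2%. A region near 0 has little room to fall and the control mean enters the difference, so this gradient is partly fixed by the choice of regions.

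**Figure D4:**
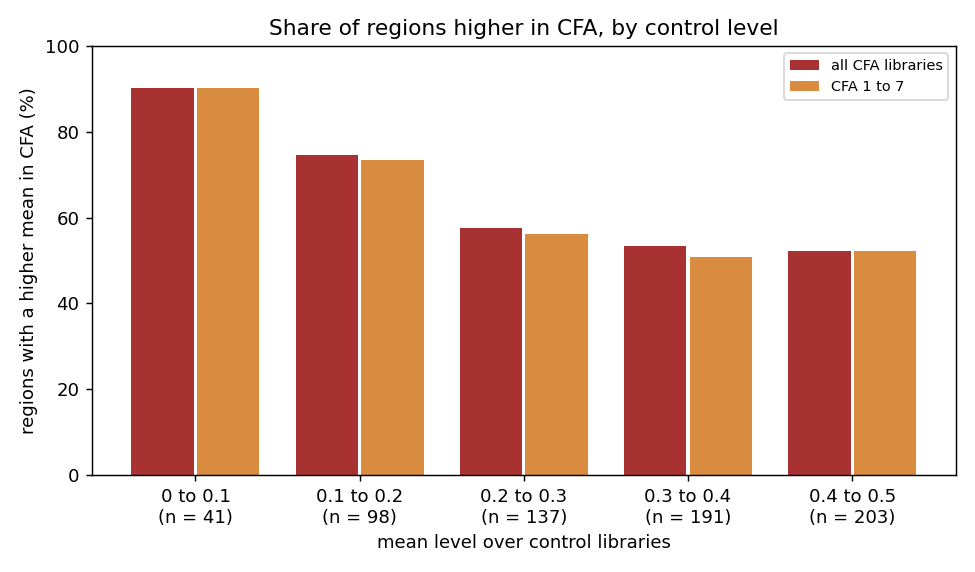
Percentage of regions with a higher mean in CFA than in controls (y axis) in 5 bins of the control mean (x axis), for all CFA libraries and for CFA 1 to 7. The share falls from 90.2% in the lowest bin to 52.2% in the highest for all CFA libraries.

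The other classes of listed regions had other values in both measures. Among the 502 regions with at least 0.05 CpGs per base and a control mean under 0.5, 66.9% were higher in CFA, with a median difference of 0.106 (0.0696 without CFA 8, 9 and 10). Among the 802 CpG-sparse regions with a control mean of at least 0.5, 48.9% were higher, with a median difference of -0.0153 (-0.0226 without them). Among the 506 denser regions with a control mean of at least 0.5, 37.4% were higher, with a median difference of -0.0953 (-0.0577 without them). Within the 670 regions, the share of higher means was 52.9% of 68 with a density under 0.02, 55.3% of 199 from 0.02 to 0.03, 59.7% of 211 from 0.03 to 0.04, and 65.1% of 192 from 0.04 to 0.05. With CFA 1 to 7 alone those shares were 51.5%, 54.8%, 58.8% and 63.0%. The median control mean fell along the same bins, at 0.380, 0.334, 0.331 and 0.303, and its part in the shares was not tested. None of these differences between classes or density bins was tested.

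Spread between libraries was similar in size to the differences of single regions (medians 0.145 in higher and -0.123 in lower ones). The SD within a group had a median over regions of 0.145 in controls, 0.178 in CFA and 0.126 in CFA 1 to 7. It was larger in CFA than in controls in 420 regions (62.7%), and in 286 (42.7%) without CFA 8, 9 and 10. Over all 2519 listed regions these shares were 60.02% and 44.0%. In the 58 regions with a value in all 20 libraries, 34 had a higher mean in CFA, and the median difference was 0.0835 (0.0543 without CFA 8, 9 and 10).

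No region passed the test. By limma over the 2434 listed regions with at least 5 values per group, with Benjamini-Hochberg adjustment at 0.05, 0 of the 670 were called higher and 0 lower. The background was 0 of 2434 higher (0.0%) and 2 lower (0.0822%). At an unadjusted p under 0.05, limma gave 139 of the 670 higher (20.7%) and 93 lower (13.9%), beside 426 (17.5%) and 371 (15.2%) of all regions tested. Nothing is read from these counts, because the regions were selected on the control level and the whole list comes described as differentially methylated. The smallest adjusted p was 0.0566, and the standard error of a difference had a median of 0.0795 (0.0386 to 0.154). These p-values set each difference against the spread between these libraries.

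With CFA 1 to 7 alone, limma again called 0 higher and 0 lower, of 658 regions tested, beside 0 (0.0%) and 2 (0.0856%) of 2337. At an unadjusted p under 0.05 it gave 121 higher (18.4%) and 93 lower (14.1%), beside 359 (15.4%) and 366 (15.7%). With all libraries, no region had every CFA value above every control value or every one below. Among all tested regions 2 were separated upward (0.0822%) and 3 downward (0.123%). Without CFA 8, 9 and 10, 1 of the 658 was separated upward (all tested regions 0.128%) and 0 downward (0.171%).

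That region, named after its values were seen, was chromosome 3, 9305486 to 9305836. Its level was 0.376 to 0.553 in controls (mean 0.481 ± 0.0624, SD, n = 10) and 0.577 to 0.714 in CFA 1 to 7 (0.634 ± 0.0410, n = 7). The difference was 0.153 (limma, adjusted p = 0.0895). Of the other CFA libraries only CFA 9 had a value, and at 0.4 it lay inside the control range.

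Regions are named below by a rule on limma p, size of difference, control level and spread, and are numbered in that order. The first 8 had the smallest p. Coordinates are on the build rn4 as deposited, and the sources used here do not give whether starts count from 0 or 1. Gene, exon and promoter positions were not analysed.

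Among the 8, 5 were higher in CFA, and the smallest p was that of region 1 on chromosome 2, 140032257 to 140032717. Its lowest, median and highest control levels were 0.0752, 0.199 and 0.540, and those in CFA were 0.334, 0.586 and 1.0. The groups overlapped, with 7 of 10 CFA libraries above every control, CFA 8 and CFA 10 at 1.0 and CFA 9 at 0.8. The means were 0.271 ± 0.164 and 0.648 ± 0.219 (SD, n = 10 each), a difference of 0.377 with a standard error of 0.0827 (limma, adjusted p = 0.0566). Without CFA 8, 9 and 10 the difference was 0.254 (adjusted p = 0.112). This region crossed the threshold when CFA 4 (limma, adjusted p = 0.0242) or CFA 7 (0.0435) was left out, and in no other fit that left out a single library.

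Region 2, on chromosome 3 from 123362132 to 123362682, was at an intermediate level in most controls and at a high one in CFA. Controls ran from 0.0555 through a median of 0.567 to 0.620 (n = 8), and CFA from 0.383 through 0.848 to 1.0 (n = 10). All CFA libraries except CFA 7 lay above every control. The difference was 0.356 (limma, adjusted p = 0.0903), or 0.304 without CFA 8, 9 and 10 (adjusted p = 0.113). When CFA 7 was left out the region passed the threshold (limma, adjusted p = 0.0184). Its values rested on few CpGs, on average 6.88 in controls and 4.90 in CFA, and with values from fewer than 5 CpGs left out the difference was 0.151 (limma, adjusted p = 0.1435).

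Region 4, on chromosome 3 from 161149675 to 161150195, had control levels from 0.0667 through 0.291 to 0.556 and CFA levels from 0.489 through 0.550 to 1.0. The means were 0.318 ± 0.176 (n = 10) and 0.612 ± 0.174 (n = 8), and 4 CFA libraries exceeded every control. Here the CFA libraries other than CFA 9, which was at 1.0, lay close together, between 0.489 and 0.681, while controls were scattered. The difference was 0.294 (limma, adjusted p = 0.119), or 0.249 without CFA 8, 9 and 10.

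Region 5, on chromosome 10 from 43746415 to 43746750, ran from 0.305 through 0.496 to 0.781 in controls and from 0.526 through 0.716 to 1.0 in CFA. The only CFA libraries above every control were CFA 8, 9 and 10, at 1.0, 0.897 and 1.0. The difference was 0.255 (limma, adjusted p = 0.120), and 0.156 without them. Region 8, on chromosome 12 from 25801420 to 25801767, was the lowest of the 5 in controls, from 0 through 0.109 to 0.339 (n = 9). In CFA it ran from 0.138 through 0.458 to 1.0 (n = 9), with 6 libraries above every control. Its difference was 0.334 (limma, adjusted p = 0.122), and 0.231 without CFA 8, 9 and 10.

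The other 3 of the 8 were lower in CFA. Region 3, on chromosome 5 from 128616522 to 128616860, had the tightest controls of the 8, from 0.323 through 0.390 to 0.562 (SD 0.0680, n = 10). CFA ran from 0 through 0.229 to 0.360 (n = 8), with 7 of 8 libraries below every control and CFA 7 inside their range. The difference was -0.188 (limma, adjusted p = 0.115). It was -0.157, with a smaller adjusted p of 0.0933, without CFA 8, 9 and 10.

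Region 6, on chromosome 4 from 162308113 to 162308706, was low in both groups. Controls ran from 0.153 through 0.249 to 0.460 and CFA from 0 through 0.0810 to 0.269, with CFA 8, 9 and 10 all at 0. The difference was -0.177 (limma, adjusted p = 0.122), and -0.135 without those 3 libraries. Region 7, on chromosome 1 from 245512157 to 245512661, was close to unmethylated in most CFA libraries. Controls ran from 0.171 through 0.268 to 0.608 and CFA from 0 through 0.0126 to 0.408, with 8 of 10 libraries below every control and only CFA 2 and CFA 6 inside their range. The difference was -0.214 (limma, adjusted p = 0.122), and -0.177 without CFA 8, 9 and 10.

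**Figure D5:**
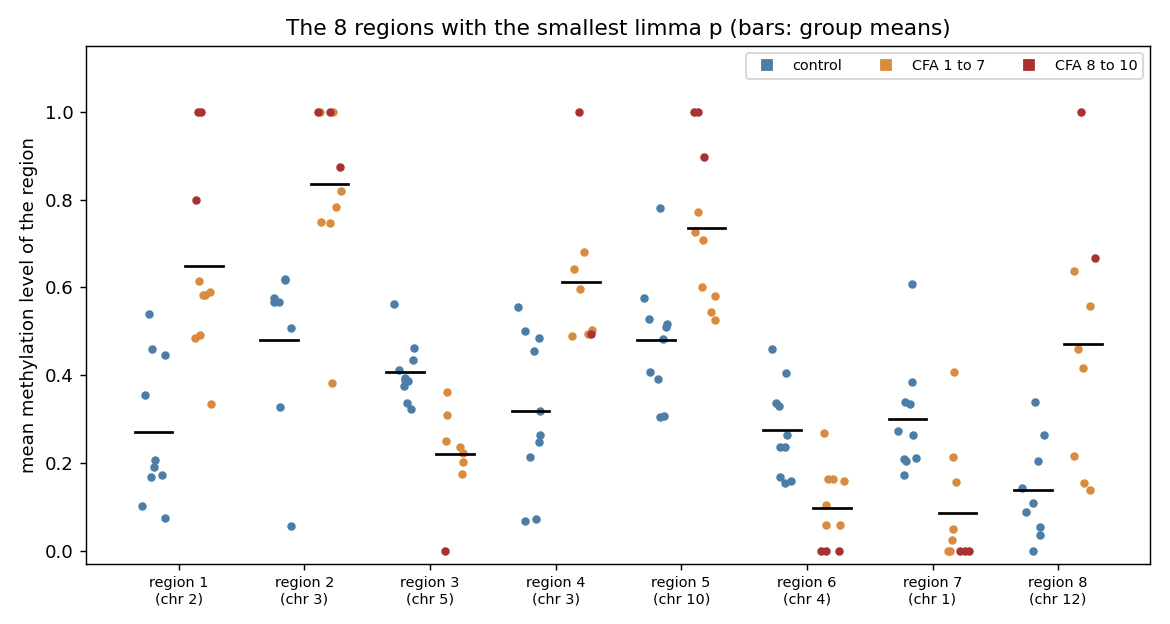
Mean methylation level (y axis, 0 to 1) in every library with a value for the 8 regions with the smallest limma p, with controls at the left and CFA at the right of each region. Horizontal bars are the means of all libraries of a group, and CFA 8 to 10 often lie at 0 or 1.

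Among the 460 regions with at least 8 values per group, the 5 largest higher differences were those of regions 1, 2 and 8 and of regions 9 and 10. Region 9, on chromosome 15 from 58956744 to 58957094, ran from 0.147 through 0.383 to 0.961 in controls (n = 10) and from 0.484 through 0.927 to 1.0 in CFA (n = 8). The overlap came from control 3 and control 4, at 0.959 and 0.961, since the other 8 controls were at most 0.466. The difference was 0.376 (limma, adjusted p = 0.122), and 0.396 without CFA 8, 9 and 10, larger than with them. Region 10, on chromosome 11 from 69483207 to 69483735, spanned 0 to 0.536 in 8 controls and 0 to 1.0 in 9 CFA libraries. Its CFA libraries were the most scattered of these 5 regions, with CFA 6 and CFA 10 at 0 and CFA 8 and CFA 9 at 0.945 and 1.0. The difference was 0.343 (limma, adjusted p = 0.135), 0.286 without CFA 8, 9 and 10, and 0.164 with values from fewer than 5 CpGs left out.

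Within the same 460 regions, the 5 largest lower differences started from control means between 0.387 and 0.499, and 3 of the 5 lay on chromosome 10. Region 11, on chromosome 10 from 63383402 to 63383686, ran from 0.0792 through 0.433 to 0.637 in controls (n = 9) and from 0 through 0.122 to 0.276 in CFA (n = 8). Its controls fell into higher and lower values, with control 5, 6, 7 and 8 between 0.0792 and 0.243, within the CFA range. The difference was -0.269 (limma, adjusted p = 0.122), and -0.251 without CFA 8, 9 and 10. Region 12, on chromosome 10 from 87749702 to 87750187, went from 0.499 ± 0.164 to 0.233 ± 0.181 (SD, n = 9 each), and region 13, on chromosome 10 from 86190519 to 86191042, from 0.387 ± 0.157 (n = 10) to 0.158 ± 0.166 (n = 9). Both had limma adjusted p = 0.122 and overlapping groups, with 4 and 6 CFA libraries below every control. Their differences were -0.267 and -0.229, or -0.2001 and -0.183 without CFA 8, 9 and 10.

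Region 14, on chromosome 7 from 138190823 to 138191066, had a value in only 1 of the last 3 libraries, CFA 9 at 0.2. Leaving them out therefore removed only that value. Its means were 0.438 ± 0.1996 (SD, n = 10) and 0.215 ± 0.155 (n = 8), and its difference was -0.223 with all libraries and -0.2205 without CFA 8, 9 and 10 (limma, adjusted p = 0.133 and 0.137). Region 15, on chromosome 6 from 10110592 to 10111199, covered nearly the whole scale in both groups, 0.0341 to 1.0 in controls and 0 to 1.0 in CFA. Its difference of -0.218 was smaller than either SD, 0.336 and 0.318 (n = 10 each; limma, adjusted p = 0.203), and it was -0.249 without CFA 8, 9 and 10.

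Of the regions with at least 8 values per group, the 3 with the lowest control means were nearly unmethylated in controls and slightly methylated in CFA. They were picked for their low control means, so a higher mean in CFA is partly fixed by the choice. Region 16, on chromosome X from 84756092 to 84756619, was the lowest of all at 0.0134 ± 0.0249 in controls, where 5 of 10 libraries were at 0 and the highest was 0.08. In CFA it was 0.0996 ± 0.121 (SD, n = 10), from 0 through 0.0715 to 0.4, with 5 libraries above every control. The difference was 0.0862 (limma, adjusted p = 0.175), or 0.0717 without CFA 8, 9 and 10. Since the sources used here give no sex, a difference in sex between groups cannot be told apart from CFA on this chromosome.

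Region 17, on chromosome 10 from 6988163 to 6988857, was at 0 in 7 of 9 controls and at 0.125 at most. In CFA it ran from 0 through 0.0833 to 0.357 (n = 9), a difference of 0.0955 (limma, adjusted p = 0.170), or 0.108 without CFA 8, 9 and 10. Region 18, on chromosome 9 from 77582673 to 77583014, had the smallest standard error of all 670. Its controls lay between 0 and 0.0590 and its CFA 1 to 7 libraries between 0.0485 and 0.135, of which CFA 6 alone was within the control range. The difference was 0.0623 (limma, adjusted p = 0.209), and 0.0743 (0.137) without CFA 8, 9 and 10, of which only CFA 10 had a value, of 0.

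Including regions 16 and 18, 5 regions were under 0.1 in every control. Such a choice leaves little room to fall, so their higher means in CFA are partly fixed by it. On chromosome 2, 113269209 to 113269463 went from 0.0216 ± 0.0279 in 10 controls to 0.148 ± 0.0773 in the 7 CFA libraries with a value, CFA 1 to 7, of which 6 exceeded every control (difference 0.127; limma, adjusted p = 0.129). On chromosome 5, 169926520 to 169926820 reached a CFA mean of 0.223, carried by CFA 3 at 0.595 and CFA 10 at 0.833, while 3 of the 7 CFA libraries were at 0. Its difference was 0.207, and 0.105 without CFA 10, the only one of the last 3 with a value. On the same chromosome, 172153950 to 172154176 was at 1.0 in CFA 8 and between 0 and 0.0787 in CFA 1 to 7. Its difference was 0.130 with CFA 8 and 0.00882 without. These 3 regions are given as all those that share the property, outside the rule for named regions.

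Of the regions with at least 8 values per group, the 3 with the largest SD among CFA libraries owed much of their difference to single libraries. Region 19, on chromosome 1 from 131146256 to 131146543, was at 0 to 0.240 in controls and in CFA at 0 in 3 libraries, 0.886 in CFA 6 and 1.0 in CFA 8. Its difference was 0.22 (limma, adjusted p = 0.181), and 0.119 without CFA 8, 9 and 10. Region 20, on chromosome 7 from 138545803 to 138546007, was at 0 to 0.267 in controls and at 1.0 in CFA 9 and CFA 10. Its difference of 0.277 (limma, adjusted p = 0.137) was 0.0965 without CFA 8, 9 and 10. Region 21, on chromosome 8 from 108145152 to 108145676, was higher by 0.154 (limma, adjusted p = 0.311), with CFA 8 and CFA 9 at 1.0. Without them its difference was -0.00326 (adjusted p = 0.979), so that its direction rested on those libraries.

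The regions were spread over all 21 chromosomes listed. Chromosome 1 held the most, 81 of its 288 listed regions, of which 40 were higher and 41 lower in CFA. Chromosomes 5 and 10 held 62 each, with 39 and 37 higher. Chromosome X held the fewest, 6 of 40, with 3 in each direction. The share of higher means was largest on chromosome 9, with 18 of 23 (19 without CFA 8, 9 and 10), and on chromosome 19, with 19 of 26, and lowest on chromosome 8, with 14 of 33. The number per chromosome is small, and differences between chromosomes were not tested.

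Close neighbours differed in the same direction about as often as in opposite ones. The median gap to the next of the 670 on a chromosome was 1171400 bases, and 19 couples lay within 10000 bases, of which 10 differed in the same direction. The closest couple was on chromosome 19, 54499928 to 54500332 and 54500660 to 54501409, only 328 bases apart, and both were higher in CFA, by 0.306 and 0.180. Leaving out CFA 8, 9 and 10 gave 0.181 and 0.0764. On chromosome 10, 76316830 to 76317079 and 76317679 to 76318115, at a gap of 600 bases, both were lower, by -0.118 and -0.106. On chromosome 7, 878163 to 878634 and 879560 to 880101 lay 926 bases apart and went opposite ways, at 0.141 and -0.134. Region 6 had a neighbour 8616 bases away that was also lower, by -0.0518, whereas the next listed couple member after region 11, at 7276 bases, was higher by 0.0409.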

How the data were processed

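The bisulfite libraries, 10 control and 10 CFA, were used, and the RNA libraries of the series were not. Per the file headers, the deposited files list regions with a fraction, the mean methylation level, and a number of CpGs, 1 file per library. The submitters' processing notes name, among other tools, Bismark 0.22.0 and Trim Galore 0.6.4, with rn4 as the build, without saying which step used which. The sources used here do not give the region caller or the read coverage, so depth is unknown and precision comes from replicates.

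The union of regions was formed over the 20 files. A missing value was left out of means and fits and none was imputed. Levels were tested in R 4.3.3 with limma 3.58.1 (robust empirical Bayes) over all regions with 5 or more values in each group, with Benjamini-Hochberg adjustment at 0.05. The fit was checked on simulated data. Differences are CFA minus control.

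Named regions were the 8 with the smallest p. To these were added, with at least 8 values per group, the 5 largest differences in each direction, the 3 lowest control means and the 3 largest SDs in CFA. The 2 regions nearest each threshold on either side were given too. The regions, classes and rule were chosen with earlier results of these data known. Alternatives were a logit scale (offset 0.01), sample weights, weights by CpG number, values from at least 5 CpGs, complete regions, group medians, the replicate number as a block, other thresholds, and leaving out CFA 8, 9 and 10 or each library. No genome or annotation of rn4 was used, so no sequence, gene or motif is given. The labels speak of pairs of rats without tying them to library numbers. No 2 libraries shared more than 2.36% of values over common regions, so none was treated as a duplicate.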

Additional observations from a re-analysis of the deposited data

Results flagged for a closer look

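Among 52 groups of values examined, 8 held a library whose gap to the nearest other exceeded Dixon's critical value. For normally distributed values about 1 in 20 groups would do so. These levels are bounded at 0 and 1, and some regions were named for a low control mean or a large spread. No excess is therefore read from the count. In region 2, CFA 7 was at 0.383 and the other CFA libraries between 0.746 and 1.0. In region 4, CFA 9 was at 1.0 and the others between 0.489 and 0.681. In region 7, control 5 was at 0.608, above the other controls (0.171 to 0.383), and CFA 2 was at 0.408, above the other CFA libraries (0 to 0.214). In region 16, control 2 was at 0.08, above 0 to 0.0264, and CFA 10 was at 0.4, above 0 to 0.160. In region 17, control 5 was at 0.125, and the other controls lay between 0 and 0.0395. In region 20, control 4 was at 0.267, and the other controls lay between 0 and 0.132. Control 5 was the library concerned in both region 7 and region 17.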

How the results depend on the processing

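The median difference kept its direction under every alternative run, from 0.0527 without CFA 8, 9 and 10 to 0.0958 with weights by CpG number, and from 0.0758 to 0.0922 when each library was left out. The count of higher means lay between 389 and 400 of 670 under the alternatives on all regions and between 394 and 404 when each library was left out, and was 34 of 58 in the regions complete in every library. The number of regions was 446 when all 10 controls had to have a value. It was 467 with a control mean under 0.4 and 880 with one under 0.6. With a density under 0.04 it was 478, and under 0.06 it was 804. Other thresholds were run for the number of regions only, not for the differences. Calls by limma moved from 0 higher to 1 (region 1) without values from fewer than 5 CpGs, where 2 of all 2175 tested regions (0.092%) were called higher. With complete regions only, where 58 of the regions were tested, 3 were called higher (regions 1 and 5 and chromosome 12, 38611414 to 38611638) and 2 lower (regions 6 and 7), with a smallest adjusted p of 0.00780. Of all 208 complete regions 6 were called higher (2.88%) and 4 lower (1.92%). Leaving out each library gave 0 to 2 higher and 0 to 0 lower, with 1 without CFA 4 (all tested regions 0.084%) and 2 without CFA 7 (0.125%). In the fit with a block for the replicate number, 0 were called in either direction (all tested regions 0.0% higher and 0.0411% lower). At an unadjusted p under 0.05 the block gave 109 higher and 78 lower (all tested regions 14.1% and 11.8%), and the median difference was 0.0880. Deviations of libraries sharing a number correlated at -0.0237 to 0.0404. Paired animals need not share such deviations, so whether the numbers mark pairs stays unknown. The sign of region 21 turned without CFA 8, 9 and 10, to -0.00326. The cause was not tested for any of these. With no coverage given, precision rests on replicates alone.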
